A study of Mus musculus with 2 samples.

Results

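The Mesp genes, the core of the Nodal pathway and a group of primitive streak genes are described here in sorted Flk1+Tie2+ cells. The cells were made from mouse embryonic stem cells, with and without a pulse of Mesp1. The 10 genes were chosen by name, Mesp1, Mesp2, Mixl1, Gsc, Evx1, Lhx1, Nodal, Lefty1, Lefty2 and Tdgf1, and were matched by gene symbol to 12 probe sets among the 45037 of the array, or 10 of 18193 named genes. Of these genes 8 had 1 probe set each, while Lhx1 and Nodal had 2. Both samples came from A2lox.Mesp1 cells, a transgenic line of 129/Ola background in which doxycycline (dox) turns on Mesp1, so the untreated cells carried the transgene too. Embryoid bodies, aggregates of differentiating stem cells, were seeded at 15000 cells/mL in medium with 10% FCS. The no dox group received nothing. The dox group received 250 ng/mL of doxycycline, present between day 2 and day 4, and both were sorted on day 5 for cells that displayed Flk1 and Tie2, the receptors encoded by Kdr and Tek. A dox-treated line without the transgene was not analysed here. Each group consists of 1 Affymetrix array, so no value has a replicate error, no difference was tested, and each difference compares these 2 samples only.

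The primitive streak is the site of the gastrulating embryo where epiblast cells leave the epithelium and become mesoderm and endoderm. Nodal, a ligand of the TGF-beta family, drives its formation. It signals through activin receptors and a co-receptor such as Cripto, the product of Tdgf1, and the receptors activate Smad2 and Smad3, which act on target genes with Smad4 and the forkhead factor Foxh1. Lefty1 and Lefty2 are secreted antagonists that Nodal itself induces. Mesp1 and Mesp2 are related basic helix-loop-helix factors. Mesp1 marks the earliest cardiovascular mesoderm as it leaves the streak, and Mesp2 positions the boundaries of somites. Expression of these genes is known to be brief, and most are off in mature endothelium.

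The regions in front of 3 of these genes are shown. Mesp1 and Mesp2 are neighbouring relatives, the first with a bright probe set and the second with almost no signal. Since the Mesp1 signal was not separated from that of the transgene, no difference between their loci is shown. Evx1 had the lower signal with dox among the members that passed the signal filter described below. Each line holds the 250 bases before the start of the gene, 5′ to 3′ on the strand of the gene, from RefSeq on GRCm38.p6. Capitals mark E-boxes (CANNTG, with N for any base), the short motif that basic helix-loop-helix factors bind.
Mesp1, chr7:79793591-79793840, minus strand: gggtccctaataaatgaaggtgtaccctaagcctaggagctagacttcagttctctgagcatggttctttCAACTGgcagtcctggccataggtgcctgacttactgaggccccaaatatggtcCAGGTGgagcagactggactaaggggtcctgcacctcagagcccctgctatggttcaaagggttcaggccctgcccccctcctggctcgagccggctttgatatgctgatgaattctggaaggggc
Mesp2, chr7:79810477-79810726, plus strand: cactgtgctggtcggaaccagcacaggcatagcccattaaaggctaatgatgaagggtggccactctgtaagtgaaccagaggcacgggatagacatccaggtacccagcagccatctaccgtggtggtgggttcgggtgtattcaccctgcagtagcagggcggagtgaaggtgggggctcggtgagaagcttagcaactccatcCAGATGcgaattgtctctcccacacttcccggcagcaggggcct
Evx1, chr6:52313248-52313497, plus strand: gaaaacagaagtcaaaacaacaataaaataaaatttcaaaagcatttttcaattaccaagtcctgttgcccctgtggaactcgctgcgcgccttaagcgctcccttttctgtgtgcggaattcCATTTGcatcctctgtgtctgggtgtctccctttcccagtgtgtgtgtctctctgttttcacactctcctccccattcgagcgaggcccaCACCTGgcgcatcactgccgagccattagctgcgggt

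The window of Mesp1 held E-boxes that begin 180 and 126 bases before the start, CAACTG and CAGGTG. That of Mesp2 held CAGATG at 44 bases, and that of Evx1 held CATTTG at 127 and CACCTG at 37 bases. Among all 7 members with an entry in the RefSeq promoter table, 5 held at least 1 E-box, the others being Gsc (CATCTG) and Tdgf1 (CAAATG), while Nodal and Lhx1 held none of these letters. Of 32851 windows of the same length, 66.2% held an E-box, so the count in the members lies near the common share. Both strands were also searched for GGTGTGA, a core of T-box sites, and AATNCACA, a form of the Foxh1 site. These motifs can overlap each other or an E-box, and 0 of the 7 windows held either of them, against 3.33% and 3.18% of all windows. A match is only a string of letters, and the absence of one says nothing about binding elsewhere.

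The deposited table gives 1 linear signal intensity in arbitrary units for each probe set and array, with a floor of exactly 1. The median signal was 112 without dox and 127 with dox. A probe set below the median of its array on both arrays is called dim here, since the table carries no detection calls. A gene passed the signal filter when its brightest probe set was not dim, which 11794 of 18193 genes did. Where a pair of signals is given, the first is from the untreated sample and the second from the dox sample. Differences are dox minus no dox on the scale log2(signal + 16), which understates the change of dim probe sets, and folds are taken from the same scale. A difference of 2-fold or more is used as a fixed size. By that measure 671 genes past the filter were higher with dox and 243 were lower, or 529 and 402 when both arrays were scaled to the same median, a step that moved the median of these genes from 0.05 to -0.13. The genes of the sorted receptors were bright on both arrays, with Kdr at 10139.7 and 10732.5 and Tek at 8799 and 9277. All 8 endothelial markers on the list passed the filter and differed by less than 2-fold. These are RNA signals without an unsorted sample beside them, so the purity of the sort was not tested. Probe sets of the same gene disagreed with a pooled SD of 0.38 log2 units past the filter and 0.48 among dim ones. That SD measures disagreement within these arrays, not between cultures.

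Of the 10 members 3 passed the signal filter, Mesp1 on both arrays, Evx1 through the array without dox and Nodal through the array with dox. The other 7 were dim on both arrays, namely Mesp2, Mixl1, Gsc, Lhx1, Lefty1, Lefty2 and Tdgf1. By their brightest probe sets 1 member was 2-fold or more higher with dox (Mesp1), 2 were 2-fold or more lower (Evx1 and Lefty2) and 7 lay within 2-fold. Over all 18193 genes 6.81% differed 2-fold or more, with 4.77% higher and 2.04% lower. Among genes past the filter 7.75% differed 2-fold or more in either direction, with 5.69% higher and 2.06% lower. Among genes dim on both arrays 5.08% differed 2-fold or more, with 3.06% higher and 2.02% lower. Of the members 5 were higher and 5 lower by any amount, and their median log2 difference was 0.01, beside 0.04 for all 18193 genes. Of these genes 7 were dim on both arrays, with Mesp2, Lefty1 and Tdgf1 at or near the floor, and the direction of Nodal depends on its probe set. So the counts and the median do not settle a direction for the group. Both lower calls lie under 2-fold with a larger pseudocount, as given with each gene.

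**Figure D1:**
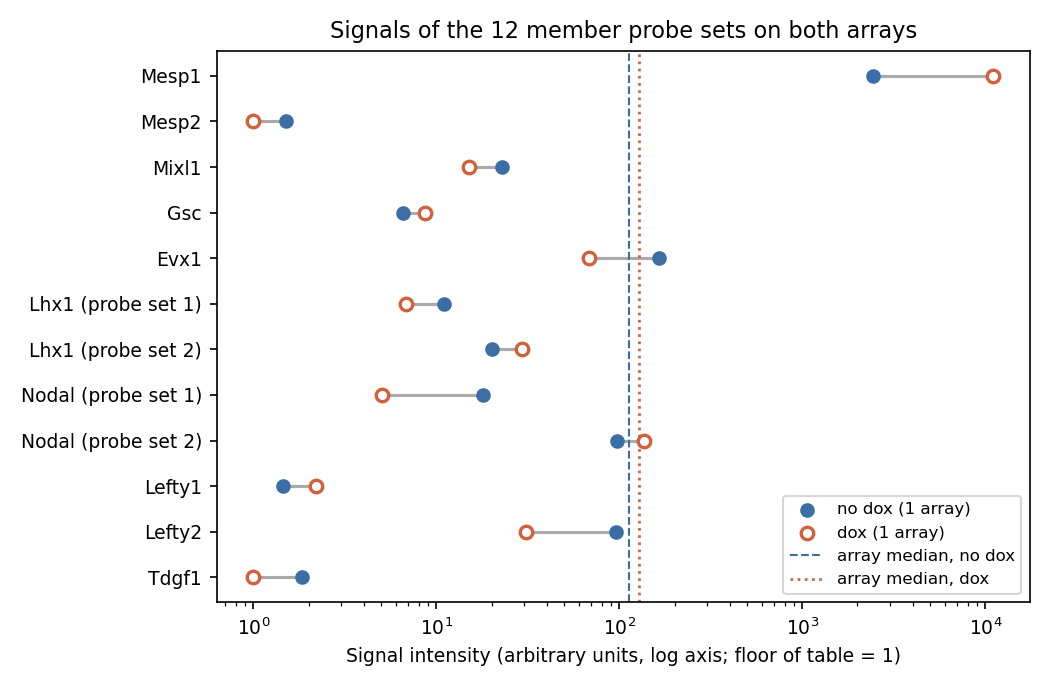
Signal intensity in arbitrary units on a log axis for each of the 12 member probe sets, with filled points for the array without dox, open points for the array with dox, and vertical lines at the array medians of 112 and 127. Mesp1 stands to the right of both medians on both arrays, and the dim probe sets lie to the left of them.

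Mesp1, the induced gene, was 4.49-fold higher with dox. The single probe set of the gene had a signal of 2433 in the untreated sample and 10977 with dox, a log2 difference of 2.17. These signals stood at the 89.0 and 98.9 percentiles of their arrays. It ranked 205 of 11794 genes past the filter from the highest difference down, and 1.73% of them had a larger one. Among genes in the brightest class, with a mean signal at or above the 75th percentile of 718, 3.94% were 2-fold or more higher. The dox array was therefore high for Mesp1 a day after the labelled end of dox, and the array without dox was already well above its median. The files used here do not separate transgene from endogenous transcript. The difference lay between 1.98 and 2.17 under the 7 other settings of scale and summary that were tried.

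Mesp2, the neighbour of Mesp1 on the chromosome, gave almost no signal on either array. Its only probe set read 1.51 without dox and 1 with dox, the floor of the table. The values are too dim for a fold, and whether the probe set detects the gene was not tested. No other gene lies between Mesp1 and Mesp2 in the RefSeq order of protein-coding genes of GRCm38.p6. The nearest genes beyond them with a named probe set, looked up after the member values were seen, showed no difference of 2-fold. Pex11a, on the Mesp1 side, had signals of 202 and 260, and Ap3s2, on the Mesp2 side, had 449 and 609, log2 differences of 0.34 and 0.43. Anpep, which lies between Mesp2 and Ap3s2, was dim at 20.5 and 16.4.

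The homeobox genes of the streak, Mixl1, Gsc, Evx1 and Lhx1, were dim apart from Evx1. Evx1 encodes a factor of the posterior streak and of posterior mesoderm. Its signal was 166 in the untreated sample and 67.8 with dox, 2.17-fold lower (log2 difference -1.12). The no dox signal lay above the median of its array and the dox signal below it, so the gene passed the filter only through the array where it was higher. For that reason its rank, 173 of 11794 genes past the filter from the lowest difference up, is not separate support for the lower signal. Among genes with a mean signal under the median, the class of Evx1, 2.26% were 2-fold or more lower. With a pseudocount of 64 the difference of Evx1 was -0.80, and with a pseudocount of 1 it was -1.28.

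Genes beside Evx1 were looked up after its value was seen. Evx1os, an antisense RNA of the same locus, was dim with signals of 47.4 and 23.5 (log2 difference -0.68). Hoxa13 and Hoxa11, the next genes on the side of the Hoxa cluster, were also dim, with signals of 33.9 and 27.9 for Hoxa13 and of 92.2 and 75.4 for Hoxa11. Hibadh, a metabolic enzyme gene on the opposite side, gave 3478 and 3014, a log2 difference of -0.21. Further along the cluster, Hoxa10 had 102 and 42.2 by its brighter, dim probe set (-1.02) and 22.04 and 32.41 by the other (0.35). Hoxa9 had 1034 and 209 by its brighter probe set (-2.23) and 243 and 238 by the other (-0.02). So the genes next to Evx1 lay within 2-fold, while 1 probe set each of Hoxa10 and Hoxa9 was lower to at least the 2-fold size. Evx2, the relative of Evx1 beside the Hoxd cluster, was dim at 29.0 and 35.2.

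Mixl1, a paired-type homeobox gene that Nodal signalling switches on in the streak, gave signals of 22.7 in the untreated sample and 15.01 with dox. Gsc (goosecoid), the classic gene of the organizer and anterior streak, had 6.59 and 8.62. Lhx1, a LIM homeobox gene of the node, the anterior mesendoderm and the lateral mesoderm, was read by 2 probe sets that went opposite ways, 10.99 to 6.84 and 20.1 to 29.3. Each of these values lies far below the array medians. The largest of their differences, 0.33 for the brighter probe set of Lhx1, is smaller than the pooled SD of 0.48 between dim probe sets of a gene.

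Nodal itself was near or below the median of both arrays, and its probe sets disagreed. The brighter gave a signal of 97.5 in the untreated sample and 136 with dox, a log2 difference of 0.42, and reached the median only on the dox array. The other was dim, with 18.0 without dox and 5.05 with dox, a log2 difference of -0.69. Both are annotated from the same transcript record, and they differ from each other by 1.11 log2 units. Averaged over its probe sets Nodal had a difference of -0.14, so the direction of its signal depends on the probe set used. Neither probe set reached 2-fold on the log2 scale used here, but for the dim one this depends on the pseudocount. Without a pseudocount its signal was 3.57-fold lower with dox. With a pseudocount of 1, the member probe sets that were 2-fold or more lower numbered 3, against 2 as reported.

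Tdgf1, the gene of the co-receptor Cripto, had a signal of 1.85 without dox and 1, the floor, with dox. Both values lay at or near the floor, so no fold is given. The platform annotation lists no transcript record for it. Nodal and Tdgf1 are also genes of undifferentiated embryonic stem cells. In the list of 8 markers of such cells 1 was 2-fold or more higher with dox and none was lower. Among all genes past the filter the shares were 5.69% and 2.06%. The higher marker was Klf4, which other cell types also express. Pou5f1, a defining gene of that state, was dim at 52.8 and 46.3, and so were Nanog (8.61 and 26.9), Zfp42 (62.0 and 68.0) and Fgf4 (56.9 and 57.4). The other markers that passed the filter beside Klf4 lay within 2-fold, Utf1 at 3346 and 1917 (-0.80), Esrrb at 272 and 246 and Dppa5a at 241 and 288.

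The Lefty genes, the feedback antagonists of Nodal, were dim on both arrays. Lefty2 gave a signal of 95.3 in the untreated sample and 31.0 with dox, 2.37-fold lower (log2 difference -1.24). The no dox value stood at the 47.0 percentile of its array and the dox value at the 23.5 percentile. Of genes dim on both arrays 2.02% were 2-fold or more lower, and the gene has no other probe set to compare. With a pseudocount of 64 the difference was -0.75, and with a pseudocount of 1 it was -1.59. Lefty1 had 1.45 and 2.20, close to the floor. Lefty1 and Lefty2 lie in the same chromosomal neighbourhood. Sde2, which adjoins Lefty2, had signals of 6131 and 7471, and Tmem63a, which adjoins Lefty1, had 324 and 379, both within 2-fold.

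**Figure D2:**
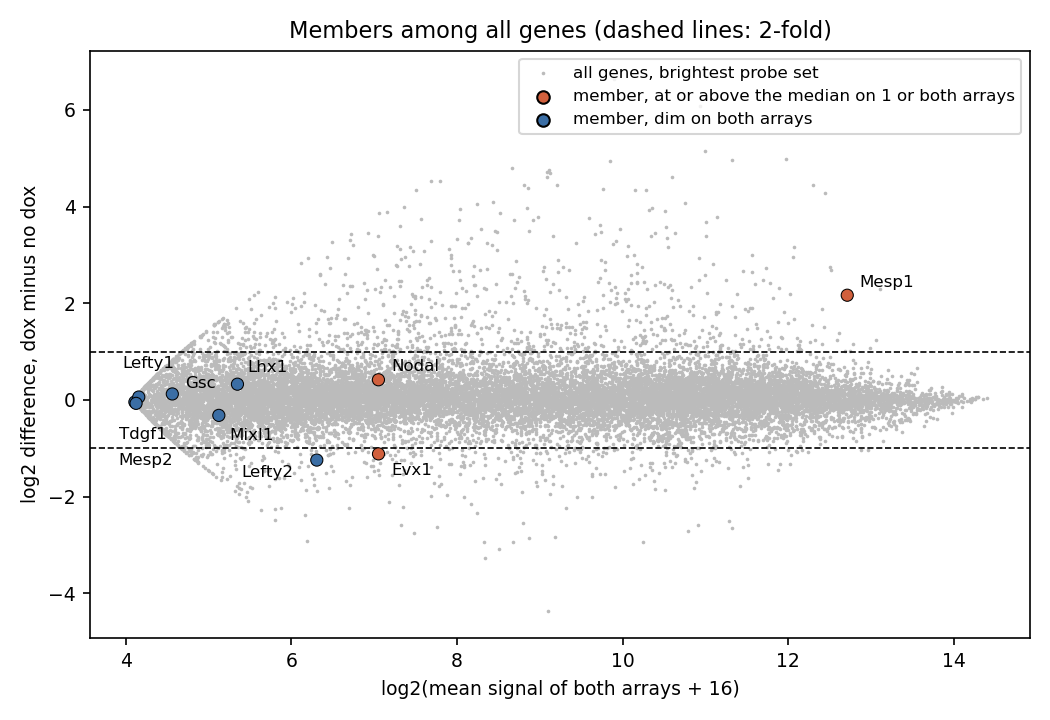
Log2 difference (dox minus no dox) against log2(mean signal + 16) for the brightest probe set of every gene in grey, with the 10 members as large points, red where the signal filter was passed and blue where dim on both arrays. Mesp1 lies at 2.17 above the upper 2-fold line, Evx1 at -1.12 and Lefty2 at -1.24 lie under the lower one, and the other members lie between the lines.

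The wider group of Nodal ligands, co-receptors, antagonists and processing enzymes showed no difference of 2-fold past the filter. Of 11 listed genes 10 had a named probe set and 4 of these passed, Nodal, Cfc1, Dand5 and Furin. Of the 4, 0 were higher and 0 lower by 2-fold, beside 7.75% of all genes past the filter in either direction. Cfc1 (Cryptic), the other co-receptor of this family, gave signals of 556 in the untreated sample and 597 with dox, a log2 difference of 0.10. Furin, a protease that processes the Nodal precursor, had 3921 and 6463, a log2 difference of 0.72. Dand5, an antagonist that acts in left-right patterning, had 123 and 119. So Cfc1 passed the filter and Tdgf1 did not, and Cfc1 was nearly equal on both arrays. Dim on both arrays were the ligand Gdf3 (35.3 and 43.6), the antagonist Cer1 (80.2 and 104) and the convertase Pcsk6 (47.6 and 86.6). The median difference of the 10 measured genes was 0.16.

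Receptors and signal transducers mostly passed the filter, 15 of 16 genes in all. Their median log2 difference was 0.15, beside 0.05 for all genes past the filter, and with scaling to equal medians the values were -0.04 and -0.13. In this list 1 gene was 2-fold or more higher, 1 was lower and 13 lay within 2-fold. Among all genes past the filter 5.69% were higher and 2.06% lower to that size. The type I receptor Acvr1b had signals of 3870 and 4498, and the type II receptors Acvr2a and Acvr2b had 785 and 1105, and 5625 and 3420. Smad2 had 1573 and 1829, Smad3 1900 and 1674, and Smad4 7016 and 7767. By their brightest probe sets none of these 6 genes differed by 2-fold, with log2 differences from -0.72 for Acvr2b to 0.49 for Acvr2a. Other probe sets that were not dim gave 0.89 for Acvr2a, 0.74 for Smad2, and -0.21 and 0.03 for Acvr2b, also under 2-fold. Dact2, a Nodal signal antagonist, was dim.

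The higher gene of this group was Smad7, an inhibitor of the pathway that TGF-beta and BMP signals induce. It gave signals of 3357 in the untreated sample and 7515 with dox, 2.23-fold higher by the brightest probe set, which by its name can detect other transcripts. Its other probe set had 1900 and 3252, a log2 difference of 0.77, under 2-fold. The lower gene was Foxh1, the Nodal pathway partner of the Smads, at 2517 and 1092 by its brightest probe set, a log2 difference of -1.19. Its other probe sets gave -0.23 and 0.35, so the call for Foxh1 rests on 1 of 3 probe sets. The mean over probe sets left neither gene past 2-fold, and scaling to equal medians also took Smad7 under it. The Smad corepressors Skil (6047 and 9735) and Tgif1 (827 and 1255) were higher with dox by 0.69 and 0.59 log2 units, under the 2-fold size.

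**Figure D3:**
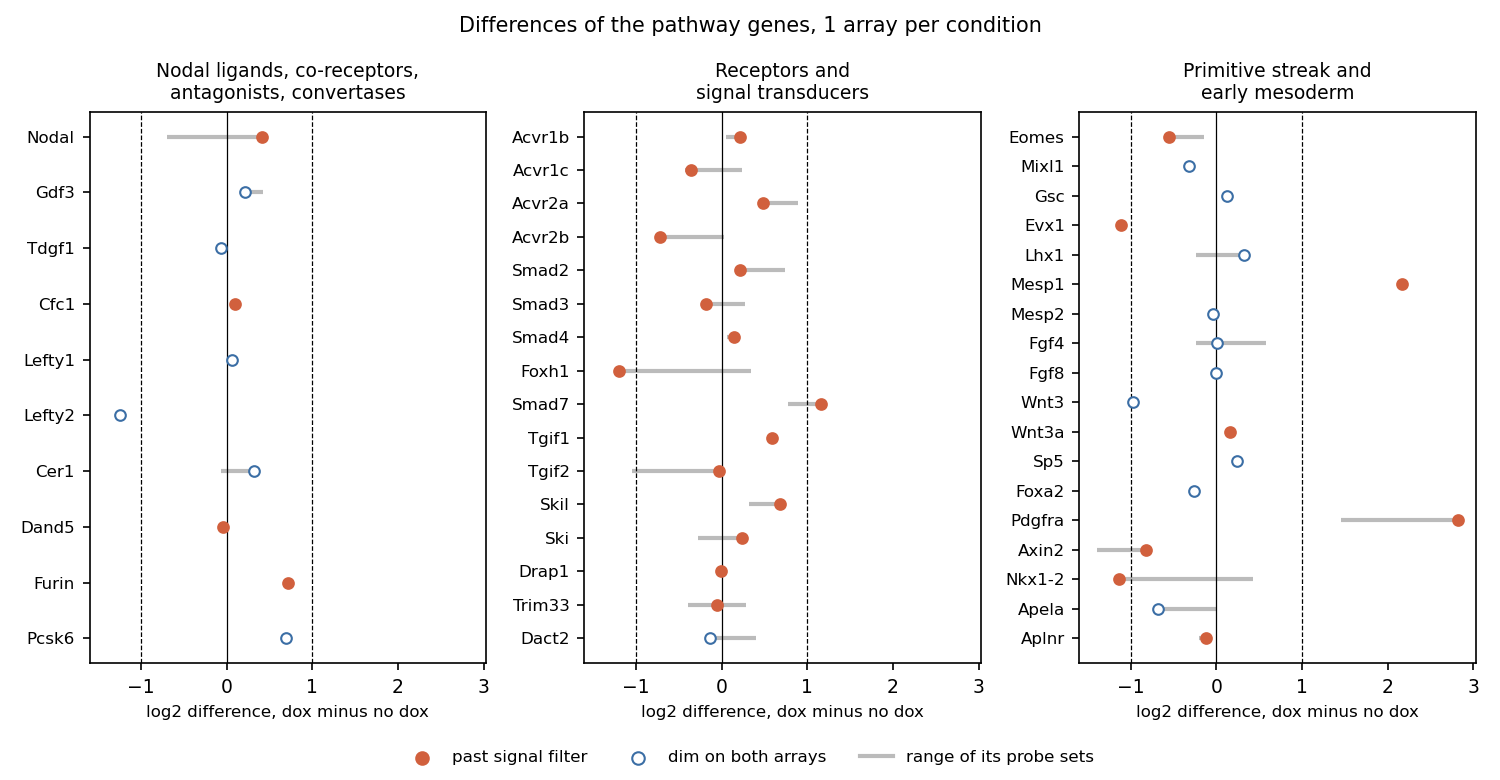
Log2 difference (dox minus no dox) of each measured gene in the Nodal ligand, receptor and streak lists, with filled points for genes past the signal filter, open points for genes dim on both arrays, grey bars over the range of the probe sets of a gene, and dashed lines at 2-fold. Receptors and transducers lie mostly between the lines, and in the streak list Mesp1 (2.17) and Pdgfra (2.81) lie far to the right.

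Genes that Nodal signalling requires or induces in the embryo were mostly dim or close to equal. Of 7 measured genes 3 passed the filter and 0 differed by 2-fold, beside 7.75% of all genes past the filter. Eomes, a T-box factor of the streak and the early mesendoderm, gave signals of 342 in the untreated sample and 229 with dox, a log2 difference of -0.55. Hhex, a homeobox factor of endoderm and endothelium, had 4046 and 3408, and Sox17, a factor of endoderm and arterial endothelium, had 9431 and 10010.4. Sox17 and Hhex are themselves expressed in endothelium, so their signals alone cannot tell endoderm from endothelium. Foxa2 (42.0 and 32.4) and Otx2 (4.98 and 6.19) were dim, Wnt3 was dim at 39.8 and 12.3, and Fgf8 was listed at the floor of 1 on both arrays.

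The list of streak and early mesoderm genes holds 6 of the members. In it 8 of 18 measured genes passed the filter, 2 of them 2-fold or more higher with dox and 2 lower. Among all genes past the filter 5.69% were higher and 2.06% lower to that size. Mesp1, the induced gene, is 1 of the higher genes. Beside Mesp1 the higher gene was Pdgfra, the PDGF receptor of paraxial and cardiac mesoderm and later of mesenchyme. It gave signals of 526 in the untreated sample and 3793 with dox, 7.03-fold higher, and its other probe sets gave log2 differences of 1.46 and 1.80. Beside Evx1 the lower gene was Nkx1-2, a homeobox gene of the posterior streak and tail region, with signals of 185 and 74.9 (log2 difference -1.14). The other probe sets of Nkx1-2 were dim and gave -0.15 and 0.42, so its call rests on 1 of 3 probe sets. Like Evx1, Nkx1-2 passed the filter only through the array without dox, where it was higher. With a pseudocount of 64, or where both arrays had to reach the median, 0 genes of the list were 2-fold lower. Wnt3a, a ligand of the posterior streak, had 210 and 235, and Axin2, a Wnt target, had 359 and 196, a log2 difference of -0.82. The other probe set of Axin2 was dim, with 33.9 and 3.04, and gave -1.39. Aplnr, the apelin receptor of early mesoderm and endothelium, had 13634 and 12532. The median of the 8 genes was -0.34, that of the 6 genes that reached the median on both arrays was 0.02, and that of all 18 measured genes was -0.08, so the list had no settled direction.

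The genes that work with Mesp2 in the presomitic mesoderm gave 4 of 13 measured genes past the filter, 1 higher and 1 lower by 2-fold. The shares among all genes past the filter were 5.69% higher and 2.06% lower. Epha4, a receptor that Mesp2 is known to induce at the somite boundary, gave signals of 124 in the untreated sample and 677 with dox, 4.96-fold higher, and its 5 probe sets were all higher with dox, by 0.73 to 2.79 log2 units. Tcf15 (paraxis), a factor of somites and of some endothelium, had 1085 and 528, 2.02-fold lower, just past the fixed size and under it with a pseudocount of 64. The Notch ligands Dll1 (293 and 437) and Dll3 (322 and 350) lay within 2-fold. Ripply2, a known target of Mesp2, was at the floor of 1 without dox and at 36.7 with dox, dim on both arrays, and no fold is given against the floor. Tbx6 (63.9 and 111) and Msgn1 (35.8 and 50.1), factors of presomitic mesoderm, were dim. The median log2 difference was 0.33 over the 4 genes past the filter and 0.35 over all 13 measured genes. For all genes these values were 0.05 and 0.04. Past the filter 3 genes of the list were higher by any amount and 1 was lower, and 9 measured genes were dim. Mesp2 itself was at or near the floor.

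Markers of other cells moved in the same pair of arrays. All 8 smooth muscle and mesenchyme markers were 2-fold or more higher with dox, their summed signal being 4334 without dox and 36524 with dox. Of these, 4 reached the median only on the dox array, and Cnn1 was at the floor without dox. Of 8 cardiomyocyte markers 6 passed the filter and 4 were 2-fold or more higher, with sums over all 8 of 1911 and 6589. Of the 4, Myl4 and Myl7 reached the median only on the dox array, and Nppa was near the floor on both arrays at 8.22 and 8.16. Of 7 measured blood and erythroid markers 6 passed the filter, with sums over all 7 of 10500.5 and 6443. Past the filter 3 were 2-fold or more lower (Hbb-bh1, Mpo and Hba-x) and 0 were 2-fold or more higher. Hba-x reached the median only on the array without dox, and Epor was higher with dox by 0.31 log2 units. The endothelial markers summed to 40484 and 38966. Of 8 definitive endoderm markers 2 passed the filter, Ttr and Sox17, the latter also expressed in endothelium, and both lay within 2-fold. In sorted bulk cells a smaller share of a cell type and less RNA per cell cannot be told apart. The part of these markers in the differences of Mesp1, Evx1, Lefty2, Pdgfra and Epha4 was not tested.

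**Figure D4:**
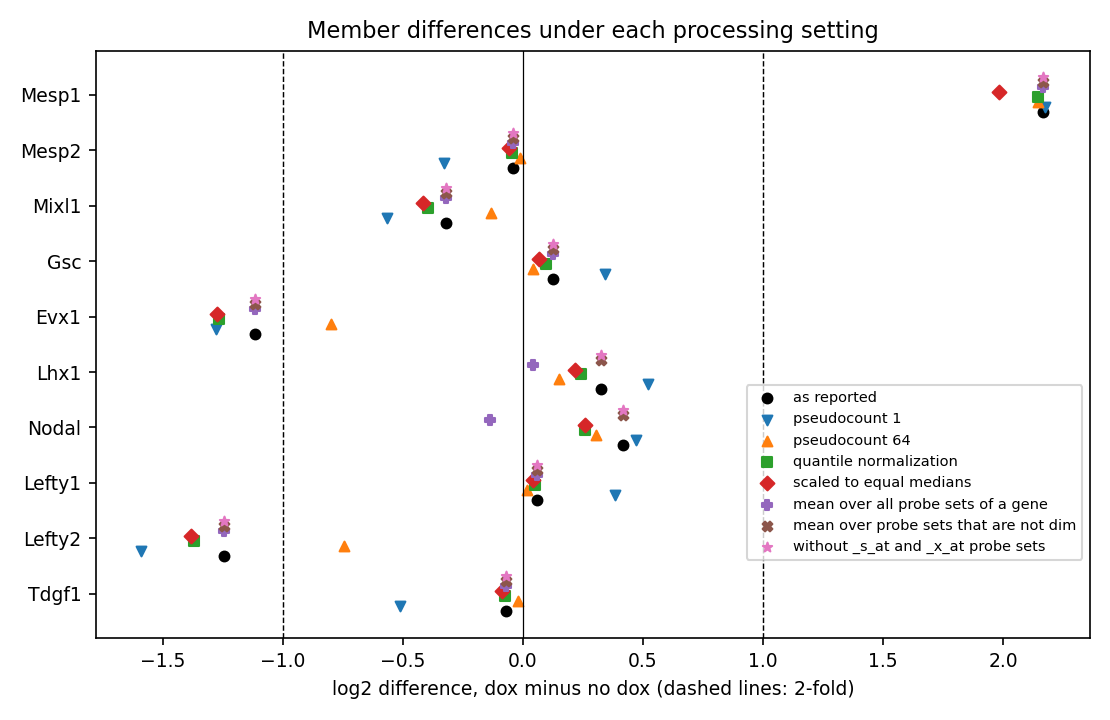
Log2 difference (dox minus no dox) of each member as reported (black circles) and under 7 other settings of pseudocount, scaling and probe set summary, with dashed lines at 2-fold. Mesp1 stays right of 2-fold under every setting drawn, Evx1 and Lefty2 cross the lower line with a pseudocount of 64, and Nodal changes side with the mean over its probe sets.

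Across the 7 other settings of pseudocount, scaling and probe set summary, Nodal was the member whose direction changed, between -0.14 and 0.47. Mixl1 ranged from -0.56 to -0.13, Gsc from 0.04 to 0.34 and Lhx1 from 0.04 to 0.52, all dim and all within 2-fold. Mesp2, Lefty1 and Tdgf1 had signals near the floor and differences between -0.51 and 0.39, the lowest for Tdgf1 and the highest for Lefty1, both with a pseudocount of 1. Only Mesp1 among the 10 kept a difference of 2-fold or more under each of these settings.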

How the data were processed

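Gene expression in 2 samples was measured on Affymetrix 3' arrays from 100 ng of total RNA, per the labels' protocols. The authors deposited linear signal intensities, 1 value per probe set and array. The summary and scaling method and the genome build are not stated in the sources used here. Scanner files were not used here. Of 45037 probe sets 34945 had 1 gene symbol in the platform annotation, 932 had several and 9160 had none and stayed unnamed. Differences were computed with Python 3.11.15 and pandas 2.3.3 as log2(signal + 16), dox minus no dox, and the brightest probe set stood for each gene. Counts in the gene lists use 2-fold on genes whose brightest probe set reached the array median on at least 1 array. The member counts cover all 10 members, dim ones included. With 1 array per condition there is no test. The number of arrays limits precision. The members and gene lists were chosen with earlier results of these data known. Every member is named. Of the lists, genes past 2-fold are named, every measured gene of the ligand list, and others as examples chosen after their values were seen. Listed genes without a probe set of their own name were not analysed here. RefSeq promoter windows were searched for motifs chosen after the values were seen. The calculation was checked on simulated arrays with known differences, planted in bright probe sets only. Among the members only Mesp1 is as bright, so recovery of a difference was not checked at the signals of the others. The alternatives were the pseudocount, the scaling, the probe set summary, probe sets that can detect several genes and the signal filter.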

Additional observations from a re-analysis of the deposited data

How the results depend on the processing

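No paired analysis was possible because each group has 1 array and no result comes from a test. With a pseudocount of 64, 0 members and 0 member probe sets were 2-fold or more lower, and 0 genes were lower in the streak list and in the presomitic list. With a filter on both arrays 0 streak genes were lower and 417 genes in all were higher. With the filter at the 75th percentile 0 streak genes were lower and 0 presomitic genes higher, 350 genes in all were higher and 135 lower, and the median differences were 2.17 for the streak list, -1.02 for the presomitic list and 0.72 for the ligand list, over 3, 1 and 1 genes. The first 2 of these medians had the opposite sign from those reported, since few genes were left. Without a filter 1 ligand gene (Lefty2) was lower, 2 presomitic genes were higher and 372 genes in all were lower. Among receptors and transducers 0 genes were higher with either mean over probe sets, with scaling to equal medians or without probe sets that can detect several genes, and 0 were lower with either mean. Scaling to equal medians gave 402 lower genes in all.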
